A study of Mus musculus with 2 samples.

Results

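The genes described here are 33 genes that cells switch on in response to type I interferon, chosen by symbol from a list, with no measured value in the rule. Of the 33, 32 had a row among the 31053 genes of the feature table, and Mx2 was not analysed here. They were measured as UMIs, tags that mark single captured RNA molecules, in single cells of mouse retina. There were 2 libraries, 1 per group. For each, the retinas of 6 mice of the C57BL/6 strain, 6 to 8 weeks old, were pooled, and all were taken 2 weeks after optic nerve injury. The control group was given PBS and the other group a treatment labelled MSC-sEV. No gene deletion or transgene is named for either group, and both went through the same enrichment on beads against CD45, a surface protein of leukocytes. Because each group was 1 pool, no test between mice was possible, no p-values are given, and treatment and library cannot be told apart.

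Type I interferons are secreted cytokines that bind a receptor made of Ifnar1 and Ifnar2 and activate the kinases Jak1 and Tyk2. These activate transcription factors, Stat2 bound to Irf9 among them, that act on a DNA element with paired GAAA repeats, the interferon-stimulated response element. The induced genes include sensors of viral RNA, inhibitors of translation and membrane proteins that block viruses, and many of them can also be induced by interferon gamma. Microglia, the resident macrophages of the retina, and Müller glia, its radial support cells, both carry the receptor.

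The response element is shown first. The genes were listed as ones that respond to type I interferon, so a high share of promoters with this element is not independent of their choice. Promoter sequences from RefSeq (GRCm38.p6, 250 bases before to 50 bases after the start) were in the table for 24 of the 32 genes. The letters GAAA, any 2 bases and GAAA again, or their complement TTTC, any 2 bases and TTTC on the other strand, were in 15 of these 24 promoters (62.5%), and 7 held them more than once, overlapping matches included. Among all 27025 promoters of the table, 943 (3.49%) held the letters and 68 held them more than once. The windows below show 30 bases around a match in the genes that the later results turn on, written 5′ to 3′ on the strand of the gene with the matching letters in capitals.
Ifit1, chr19:34640775-34640804, + strand: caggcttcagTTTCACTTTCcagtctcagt
Ifit3, chr19:34583363-34583392, + strand: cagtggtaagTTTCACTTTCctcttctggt
Ifit3b, chr19:34607759-34607788, + strand: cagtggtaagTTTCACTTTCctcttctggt
Isg15, chr4:156200871-156200900, - strand: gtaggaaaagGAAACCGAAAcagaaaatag
Stat2, chr10:128270266-128270295, + strand: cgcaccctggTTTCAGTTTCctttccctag
Rsad2, chr12:26456553-26456582, - strand: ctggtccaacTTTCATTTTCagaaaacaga
Ifitm3, chr7:141010706-141010735, - strand: aaacttctgaGAAACCGAAActgccgcaga
Oas3, chr5:120777715-120777744, - strand: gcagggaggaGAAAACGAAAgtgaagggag
Eif2ak2, chr17:78882535-78882564, - strand: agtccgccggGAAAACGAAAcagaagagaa

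Both windows of Ifit3 are identical to the windows of its neighbour Ifit3b. Their transcripts are 98.0% identical over 1697 aligned bases, and 14.9% of the 50-base windows in the last 500 bases of Ifit3 are shared. Reads of these genes may therefore have been lost or split by the counting, and their values are uncertain. No match was in the windows of Ifit2, Irf7, Irf9, Oasl1, Oasl2, Ifi47, Ifi44, Ifi35 and Xaf1, which says only that these letters are not within them. Oas2, Usp18, Ifi204, Mx1, Rtp4, Ifi27l2a, Zbp1 and Parp14 were the genes without an entry.

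The PBS library held 8439740 UMIs in 1676 barcodes, of which 1347 passed the filter on UMIs, genes and mitochondrial share. The MSC-sEV library held 16987131 UMIs in 2593 barcodes, of which 2323 passed, and the libraries shared 0 barcodes. Median depth was 2596 and 2922 UMIs, and the median mitochondrial share was 5.07% and 2.59%. Cells were grouped by clustering with the interferon genes left out, and clusters were named "-like" from markers, so names are rebuilt and not the authors'. Although the labels call the samples immune cells of the retina, rod photoreceptor-like cells were the most numerous, with 982 PBS and 1253 MSC-sEV cells. Both libraries also held classes named microglia-like (111 and 361 cells), Müller glia-like (113 and 76), cone-like (76 and 48), bipolar cell-like (41 and 52) and endothelial cell-like (21 and 10). Monocyte or macrophage-like cells (153), T cell-like cells (108), conventional dendritic cell type 2-like cells (68), migratory dendritic cell-like cells (50) and an unnamed cluster led by Ccr3, Retnlg and Alox15 (140) came from the MSC-sEV library only. The T cell-like cluster also had Hist1h1b and Top2a among its leading genes, so it holds dividing cells.

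In the kept barcodes, the 32 genes together had 5814 of 8037219 UMIs in the PBS library, 723 counts per 1000000 (CPM), and 50314 of 16565276 in the MSC-sEV library, 3037 CPM. Of these barcodes, 42.2% and 62.7% held at least 1 of their UMIs. All 32 were seen in the MSC-sEV library and 31 in the PBS library, where Oas3, an enzyme that makes 2′-5′-linked oligoadenylates in response to viral RNA, had 0 UMIs and 230 in the other library. In the PBS library 6 genes had under 20 UMIs. The 5 most abundant made up 48.6% of the set's UMIs in the PBS library (Ifitm3, Ifit3, Bst2, Ifi27l2a and Isg15) and 61.0% in the MSC-sEV library, where Ifi204 took the place of Ifit3. Since the MSC-sEV library held leukocyte classes that the PBS library lacked, the library totals mix the makeup of cells with the level per class, and the libraries are compared below within a class only.

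**Figure D1:**
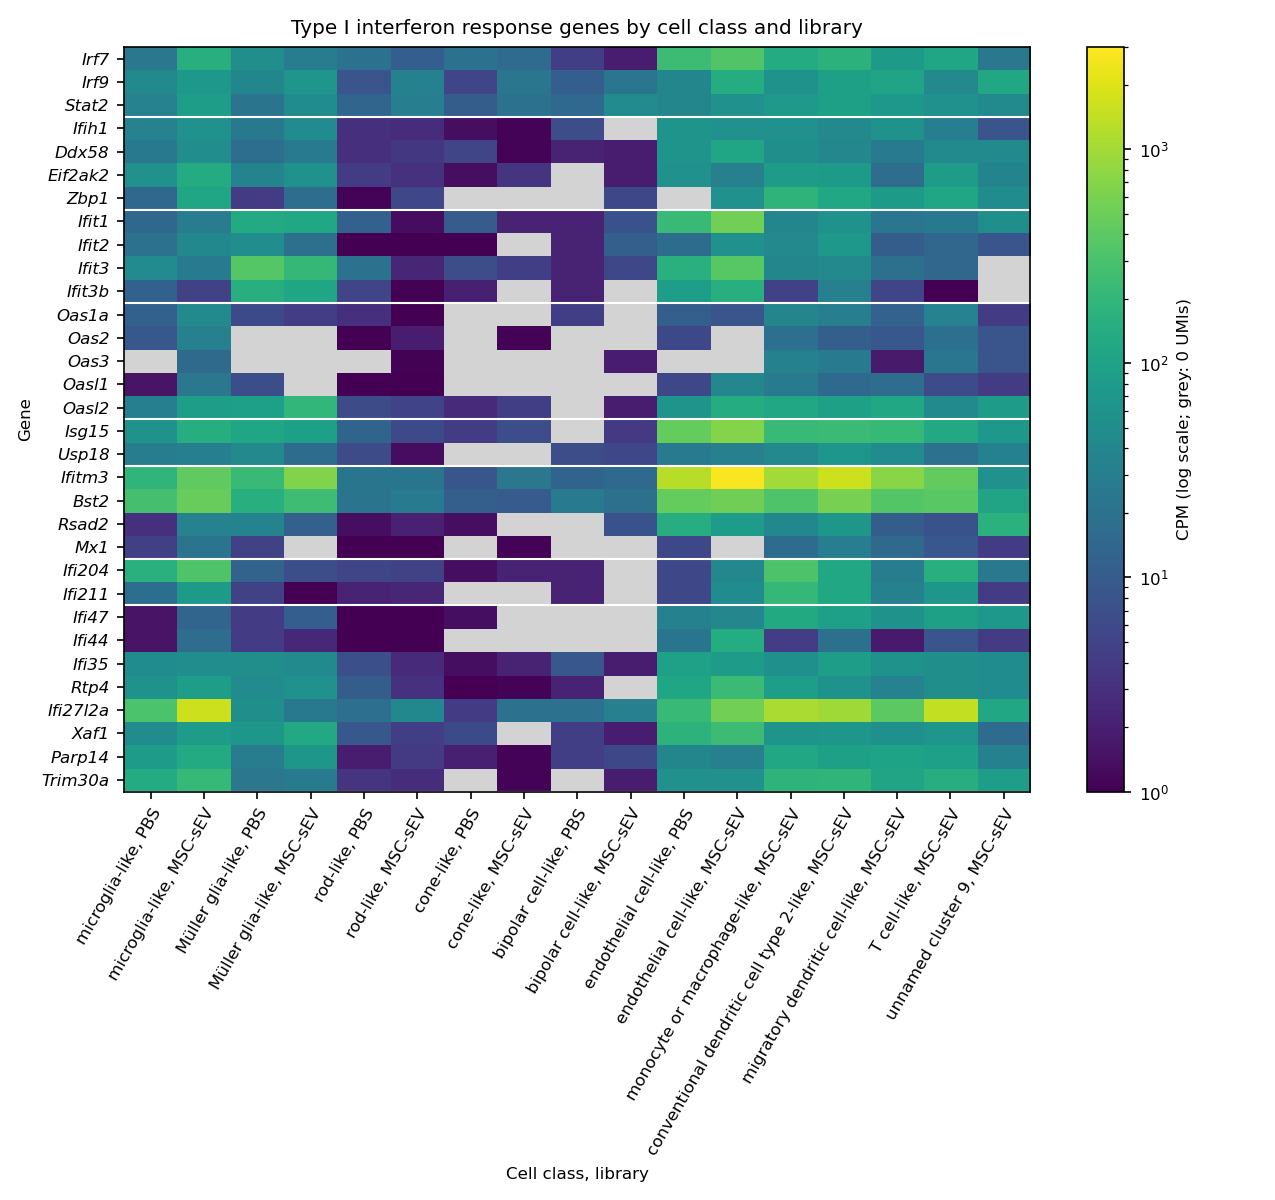
Level of each of the 32 genes, in CPM on a logarithmic colour scale, in every cell class (columns, by library); white lines separate the groups by function and grey marks 0 UMIs. Levels below 1 CPM take the darkest colour. Among the brightest fields are Ifi27l2a in MSC-sEV microglia-like and T cell-like cells and Ifitm3 in endothelial cell-like and conventional dendritic cell type 2-like cells, while photoreceptor and bipolar columns are dark throughout.

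The level of the summed set differed widely between cell types. In the MSC-sEV library it was highest in endothelial cell-like cells at 7687 CPM (95% exact Poisson interval 7201 to 8197), although these were 10 cells and 1 of them held 37.7% of the UMIs. Conventional dendritic cell type 2-like cells followed at 5447 CPM (5317 to 5578), then monocyte or macrophage-like cells at 4909 (4827 to 4992) and microglia-like cells at 4745 (4675 to 4817). Of the set's UMIs in monocyte or macrophage-like cells, 39.4% were in 23 of 153 cells, a subcluster described at the end. Without it the level was 3408 CPM (3335 to 3482). No other class had its highest cells left out in this way, so that value is not ranked against the other classes. T cell-like cells had 3823 CPM (3727 to 3921), migratory dendritic cell-like cells 2896 (2757 to 3040), Müller glia-like cells 2361 (2274 to 2450) and the unnamed Ccr3 cluster 1404 (1258 to 1561). Rod-like, bipolar cell-like and cone-like cells had 230 (215 to 246), 206 (169 to 248) and 146 CPM (122 to 173), and the rod-like and bipolar cell-like intervals overlapped. Such intervals, here and below, hold only the error of counting UMIs and nothing of how mice or cells vary.

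In the PBS library the order was endothelial cell-like at 4216 CPM (3919 to 4531; 21 cells), Müller glia-like at 1879 (1810 to 1951) and microglia-like at 1831 (1730 to 1937). The latter intervals overlapped. Rod-like cells had 226 CPM (211 to 242), bipolar cell-like cells 143 (110 to 182) and cone-like cells 108 (91.8 to 126). In both libraries the neuronal classes thus lay far under glia, vessel cells and leukocytes.

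The makeup of the set also differed between classes. Ifi27l2a, an interferon-induced protein of mitochondria and the nuclear envelope, made up 34.6% of the set's UMIs in MSC-sEV microglia-like cells, 37.3% in T cell-like cells and 21.8% in monocyte or macrophage-like cells. It made up 13.8% in migratory dendritic cell-like cells, and its level in MSC-sEV Müller glia-like cells was 25.4 CPM, from 30 UMIs. Ifitm3, a membrane protein that blocks fusion of enveloped viruses, led in conventional dendritic cell type 2-like cells (30.1%), migratory dendritic cell-like cells (24.6%), endothelial cell-like cells (30.4% PBS, 35.9% MSC-sEV) and MSC-sEV Müller glia-like cells (27.9%).

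The IFIT proteins, which bind foreign RNA at its 5′ end, made up more of the set in Müller glia-like and endothelial cell-like cells than in leukocytes. Ifit1, Ifit2, Ifit3 and Ifit3b together held 37.2% of the set's UMIs in PBS and 19.2% in MSC-sEV Müller glia-like cells, and 11.4% and 14.8% in endothelial cell-like cells. Of their 1031 UMIs in PBS Müller glia-like cells, 545 were in 1 cell, described below. In microglia-like, monocyte or macrophage-like, T cell-like and dendritic cells these genes held 1.41% (T cell-like) to 5.17% (PBS microglia-like). In photoreceptor and bipolar classes they held 2.17% (MSC-sEV rod-like) to 17.9% (PBS cone-like). Oas2 and Oas3 had 0 UMIs in the Müller glia-like cells of both libraries, while in MSC-sEV microglia-like cells they had 117 and 57. The unnamed Ccr3 cluster had a pattern of its own. Its highest level was that of Rsad2, an enzyme also called viperin that makes a chain-terminating nucleotide, at 166 CPM (40 UMIs), and Ifit3 had 0 UMIs there.

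Microglia-like cells had the most UMIs of the set in both libraries together, and of the 32 nearly all had higher levels after MSC-sEV. Summed, they went from 1831 CPM in 111 PBS cells (1219 UMIs) to 4745 CPM in 361 MSC-sEV cells (17124 UMIs), a ratio of 2.59 (95% exact conditional binomial interval 2.45 to 2.75). All 32 reached the minimum of 20 UMIs, 30 were higher and 2 lower, where 52.0% of all genes with at least 20 UMIs were higher. By at least 2-fold, 20 (62.5%) were higher and 1 lower, where 10.6% of 10023 genes with at least 20 UMIs were higher and 7.16% lower by as much. The median log2 ratio was 1.23 over the set and 0.033 over all those genes. The minimum was the sum of both libraries, in a class with 665778 PBS and 3608542 MSC-sEV UMIs. Genes sparse with PBS, Oas3, Oasl1, Rsad2, Mx1, Ifi44 and Ifi47 among them, therefore reached it through MSC-sEV UMIs. Their direction adds little to these counts.

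The class was held by different clusters in the 2 libraries. Cluster 3 had 71 PBS and 175 MSC-sEV cells, cluster 7 had 1 and 186, and cluster 16 had 39 and 0. Within cluster 3 alone, where both libraries had over 50 cells, the sum went from 1702 CPM (276 UMIs) to 4742 CPM (2820 UMIs), a ratio of 2.79 (2.46 to 3.16). There 23 genes reached 20 UMIs and 21 of them were higher, beside 57.1% of 4944 genes. By at least 2-fold, 11 were higher (47.8%, beside 17.9% of the 4944). A single PBS cell held 80 of the 276 UMIs; without the top cell of each library the sum in cluster 3 was 1247 and 4179 CPM. The levels of cluster 16 in the PBS library (1803 CPM) and cluster 7 in the MSC-sEV library (4746 CPM) were close to those of cluster 3 in the same library.

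Markers of other cells moved with this result. In microglia-like cells the 9 monocyte or macrophage markers summed to 70.6 CPM with PBS, with 5 seen and Ccr2, Ly6c2, Chil3 and Vcan at 0, and to 207 CPM with MSC-sEV, with all 9 seen. The 10 microglia markers, all seen in both, were at 13697 and 7714 CPM. The 9 rod markers, whose RNA other cells can carry as free RNA, were at 11175 and 4583 CPM. In microglia-like cells without a UMI of a monocyte or macrophage marker the ratio of the sum was 2.43. The part of the microglia and rod markers in the result was not tested.

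**Figure D2:**
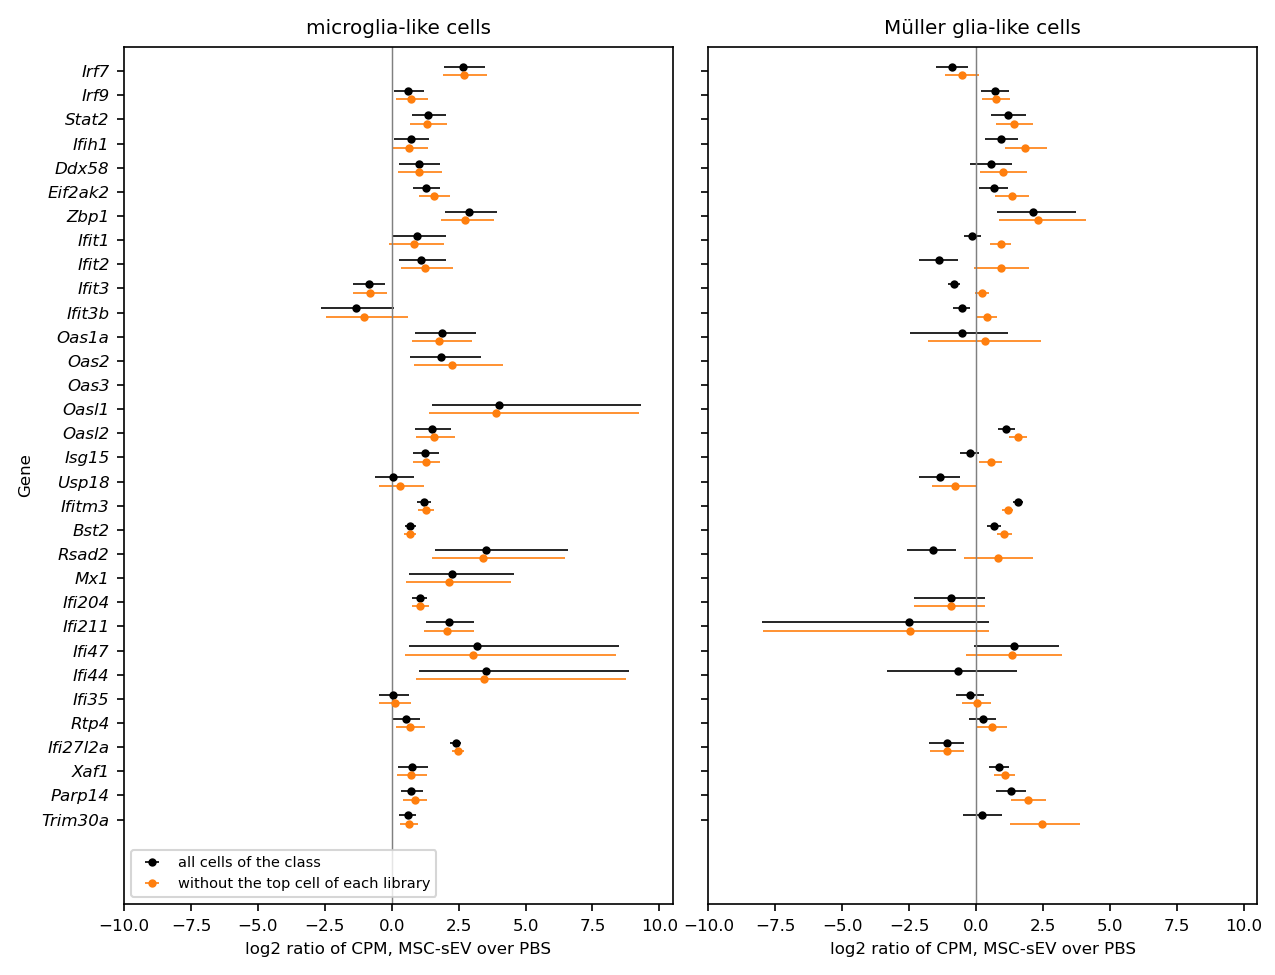
log2 ratio of CPM, MSC-sEV over PBS, for each gene in microglia-like (left) and Müller glia-like cells (right); points are ratios, bars 95% exact conditional binomial intervals, and orange leaves out the cell with the most UMIs of the set in each library. Genes with 0 UMIs in a library have no point. Left, 29 points lie above 0 and the IFIT3 pair below, with black and orange close together; right, several points, Ifit2 and Rsad2 among them, lie below 0 in black and above it in orange.

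Among the transcription factors, Irf7, which drives interferon production and its own amplification, had 16 UMIs (24.0 CPM) with PBS and 546 (151 CPM) with MSC-sEV. The ratio was 6.30 (3.84 to 11.1), and within cluster 3 it was 6.11 (2.54 to 19.2). Stat2 was 2.55-fold higher (1.67 to 4.08) and Irf9 1.52-fold (1.05 to 2.29), and within cluster 3, with 3 PBS UMIs each, their intervals included 1 (Stat2 1.82, 0.539 to 9.55; Irf9 1.91, 0.570 to 9.99). The 3 together had a ratio of 2.95 (2.32 to 3.81).

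Zbp1, a sensor of left-handed nucleic acid that can start cell death, had the largest ratio among the sensors. It had 10 UMIs (15.0 CPM) and 397 (110 CPM), a ratio of 7.32 (3.94 to 15.4). The kinase Eif2ak2 (PKR), which stops translation on double-stranded RNA, was 2.41-fold higher (1.73 to 3.45), and the RNA helicases Ddx58 (RIG-I) and Ifih1 (MDA5) 2.01-fold (1.22 to 3.52) and 1.64-fold (1.06 to 2.64).

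Of the OAS enzymes and their relatives, Oasl2 had the most UMIs, with 21 (31.5 CPM) and 320 (88.7 CPM), a ratio of 2.81 (1.81 to 4.61). Oas1a and Oas2 were 3.71-fold (1.84 to 8.75) and 3.60-fold (1.60 to 10.0) higher. Oasl1 rested on 1 and 87 UMIs, a ratio of 16.1 (2.81 to 641). Oas3 had 0 and 57 UMIs, at least 3.51-fold higher against a floor of 3 counts over the class. The 5 genes together had a ratio of 3.80 (2.72 to 5.47), from 36 and 742 UMIs. Within cluster 3 it was 2.12 (1.06 to 4.83), from 9 and 70 UMIs, where the transcription factors were at 3.79 (2.06 to 7.76) and the sensors at 3.94 (2.14 to 8.05).

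The IFIT group stood apart in microglia-like cells, with 63 and 367 UMIs and a ratio of 1.07 (0.821 to 1.43). Ifit3 had 32 UMIs (48.1 CPM) and 95 (26.3 CPM), a ratio of 0.548 (0.363 to 0.845), and its near copy Ifit3b had 8 and 17, a ratio of 0.392 (0.160 to 1.05). These were the only genes of the set that were lower. Ifit1 and Ifit2 were 1.92-fold (1.003 to 4.12) and 2.14-fold (1.22 to 4.12) higher, but with each cell given the same weight the log2 ratio of Ifit2 was -0.37.

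Isg15, a small protein that is attached to other proteins like ubiquitin, had 41 UMIs (61.6 CPM) and 529 (147 CPM), a ratio of 2.38 (1.73 to 3.36). This depended on how cells were weighed: with each cell given the same weight its log2 ratio was -0.00598, and within cluster 3 its ratio was 1.12 (0.720 to 1.82). Usp18, the protease that removes Isg15 and also holds back the receptor, had 20 and 113 UMIs, a ratio of 1.04 (0.644 to 1.77), and within cluster 3 it had 8 and 6 UMIs, a ratio of 0.204 (0.0585 to 0.672).

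Among membrane and GTPase restriction factors, Ifitm3 had 124 UMIs (186 CPM) and 1543 (428 CPM), a ratio of 2.30 (1.91 to 2.78). Bst2 (tetherin), which holds budding virus at the cell surface, was 1.62-fold higher (1.39 to 1.89). Rsad2 had 2 and 124 UMIs, a ratio of 11.4 (3.10 to 95.5), and the GTPase Mx1 had 3 and 78, a ratio of 4.80 (1.58 to 23.8). In the Ifi200 family of DNA-binding proteins, Ifi204 had 108 UMIs (162 CPM) and 1201 (333 CPM), a ratio of 2.05 (1.68 to 2.52), and Ifi211 was 4.35-fold higher (2.45 to 8.52).

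Of the remaining genes, Ifi27l2a had 209 UMIs (314 CPM) and 5928 (1643 CPM), a ratio of 5.23 (4.56 to 6.04), and within cluster 3 it was 6.10 (4.62 to 8.22). Of the microglia-like cells, 45.9% held a UMI of it in the PBS library (median depth 3002 UMIs) and 83.9% in the MSC-sEV library (5406 UMIs). In rod-like cells, at 2217 and 2447 UMIs, it was seen in 2.95% and 9.02%. Without this gene the ratio of the set's sum in microglia-like cells was 2.05. Ifi44 and Ifi47 rested on 1 PBS UMI each, and Ifi35 had 33 (49.6 CPM) and 185 UMIs (51.3 CPM), a ratio of 1.03 (0.711 to 1.55). Xaf1, Parp14, Trim30a and Rtp4 were 1.44 to 1.71-fold higher.

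Beyond the set, other genes of the pathway were read from lists by role. No interferon alpha gene had a UMI in either library. Of the 18 type I interferon genes listed, Ifnb1 had 2 UMIs, in 1 MSC-sEV microglia-like cell, and Ifnz had 1 UMI in the PBS library. Ifng, the type II interferon, had 0 UMIs in the PBS library and 43 in 10 MSC-sEV barcodes, 42 of them in T cell-like cells. Ligand RNA was thus at or near the limit of detection, apart from Ifng in T cell-like cells.

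Of 5 receptor genes measured in microglia-like cells none differed by 2-fold, with Ifnar1 at 1.19 (0.813 to 1.80), Ifnar2 at 0.736 (0.614 to 0.885) and the interferon gamma receptor gene Ifngr1 at 0.596 (0.529 to 0.673). Of the 3 receptor kinase genes, Jak2 (12 and 198 UMIs; 3.04, 1.70 to 5.99) was higher by at least 2-fold, with Jak1 at 1.17 (0.948 to 1.45) and Tyk2 at 1.90 (0.993 to 4.08). Of 13 upstream sensors and adaptors 2 were, Dhx58 (2.62, 1.42 to 5.35) and Ikbke (0 and 33 UMIs, at least 2.03-fold), a share near the 10.6% of all genes measured that were higher by as much. The nucleic acid sensing genes Tmem173 (STING) and Mb21d1 (cGAS) had ratios of 1.15 (0.937 to 1.41) and 0.780 (0.549 to 1.13). Some of these moved within cluster 3, where the interferon gamma receptor gene Ifngr2 was at 2.61 (1.44 to 5.20) in place of 1.07 and Tmem173 at 2.77 (1.27 to 7.13).

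Feedback inhibitors held 2 of 6 that were higher by at least 2-fold, beside 10.6% of all genes measured in microglia-like cells. Socs1, which blocks the kinases of the receptor, had 7 and 371 UMIs, a ratio of 9.78 (4.70 to 24.5), and Samhd1, which depletes nucleotides, was 2.86-fold higher (2.10 to 3.97). Of 5 listed genes that respond more to interferon gamma, 3 reached the minimum of 20 UMIs, and these were higher. Irf1 was 2.79-fold higher (1.90 to 4.25). Ciita, the master regulator of MHC class II, had 0 and 69 UMIs and Cxcl9 0 and 83, at least 4.24-fold and 5.10-fold higher. Ciita and Cxcl9 reached the minimum through MSC-sEV UMIs alone, in a class with 3608542 UMIs beside 665778 with PBS. Their direction therefore adds little to that of Irf1. Among induced chemokines, Cxcl10 had 1 and 174 UMIs (ratio 32.1, 5.69 to 1275), while Ccl12 was at 0.988 (0.894 to 1.09) and Ccl5 at 0.519 (0.462 to 0.583). The direction of Ccl5 turned within cluster 3, where it had 55 and 407 UMIs, a ratio of 2.02 (1.52 to 2.73).

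How the set was spread over single microglia-like cells was read after each cell was thinned to 1000 UMIs, which left out 27 PBS and 46 MSC-sEV cells with fewer. At least 3 of the genes were seen in 16 of 84 PBS cells (19.0%, exact Clopper-Pearson interval 11.3 to 29.1) and 151 of 315 MSC-sEV cells (47.9%, 42.3 to 53.6). At least 5 were seen in 2 (2.38%) and 60 cells (19.0%), and no UMI of the set in 40.5% and 10.8%. In rod-like cells at least 3 were seen in 2 of 703 PBS cells (0.284%) and 3 of 1045 MSC-sEV cells (0.287%). At least 1 was seen in 12.7% (10.3 to 15.3) and 20.6% (18.2 to 23.2) of these rod-like cells. The size of the difference at 3 genes in microglia-like cells moved with the thinning: with another random draw it was 39.4 percentage points in place of 28.9.

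The amount per cell varied in a graded way. The variance of the set's UMIs per thinned microglia-like cell was 3.12 times the mean in the PBS and 3.77 times in the MSC-sEV library, and the top 10% of cells held 43.2% and 31.2% of the UMIs. The median share of a cell's own UMIs that belonged to the set was 0.109% and 0.357%. A share of at least 1%, a limit set after the values were seen, was reached by 1 of 84 PBS and 20 of 315 MSC-sEV cells (6.35%, 3.92 to 9.64), with 29 MSC-sEV cells between 0.8% and 1.2%. Thinned MSC-sEV cells with an Isg15 UMI held a median of 4 other genes of the set, and those without held 2; for Irf7 the medians were 3 and 2. Of the 31 genes seen in these cells, the median number of other genes was higher in cells with a UMI of the gene for 28, equal for 2 (Irf9 and Trim30a) and lower for 1 (Usp18, seen in 6 cells). Some of the 28 rested on as few as 3 cells.

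**Figure D3:**
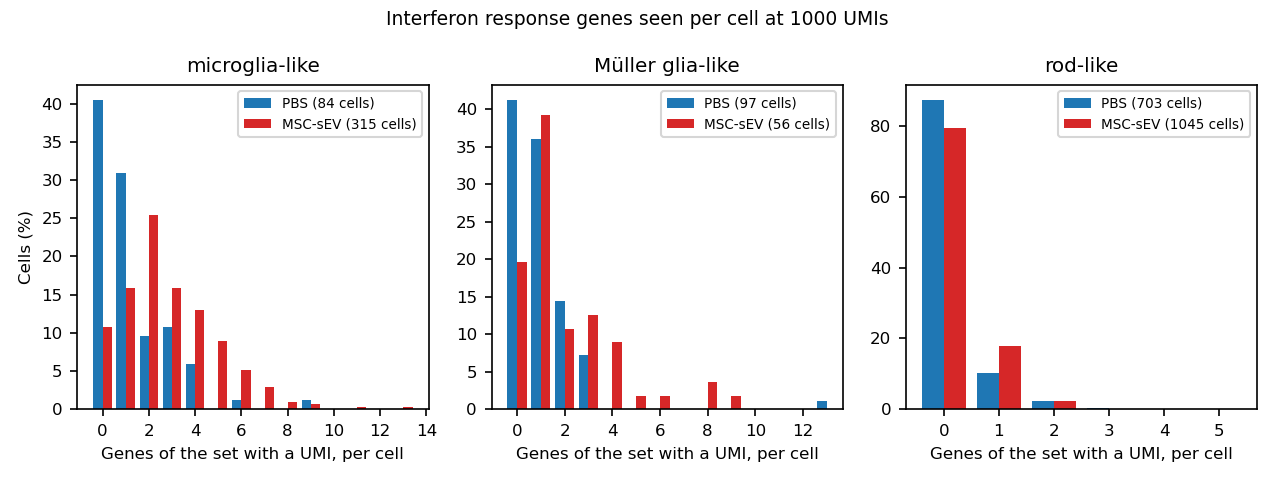
Share of cells (%) by number of genes of the set with a UMI, after thinning to 1000 UMIs, in microglia-like, Müller glia-like and rod-like cells, by library. In microglia-like cells the bar at 0 genes is 40.5% for PBS and 10.8% for MSC-sEV, and the MSC-sEV bars reach farther to the right; rod-like cells lie almost wholly at 0 and 1.

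Splitting the MSC-sEV microglia-like cells by Arg1, a gene of alternative activation, gave like levels. At 1000 UMIs, 157 cells with an Arg1 UMI had 4153 CPM (3840 to 4484) and 158 without had 4532 CPM (4206 to 4876), with at least 3 genes of the set in 47.1% and 48.7%. The 17 thinned cells with a UMI of the division genes Mki67 or Top2a had 5882 CPM (4786 to 7155) and the other 298 had 4255 CPM (4024 to 4496).

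Müller glia-like cells differed from microglia-like cells in which genes were higher. The sum went from 1879 CPM in 113 PBS cells (2769 UMIs) to 2361 CPM in 76 MSC-sEV cells (2794 UMIs), a ratio of 1.26 (1.19 to 1.32). Of 24 genes with at least 20 UMIs, 13 were higher and 11 lower, where 57.2% of 10144 genes were higher. By at least 2-fold, 5 were higher and 4 lower, where 9.51% and 4.67% of the 10144 were. The 8 other genes of the set were too sparse to read. The median log2 ratio was 0.24 over the 24 genes and 0.13 over all genes measured.

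These values rested on 1 PBS cell. It held 971 of the 2769 UMIs (35.1%), 4.31% of its own 22517 UMIs, while the next cell of its library held 119. It had 390 UMIs of Müller glia markers, 1 of microglia markers, 4 of monocyte or macrophage markers and 311 of rod markers. In this cell 27 of the 32 genes were seen, and the IFIT genes gave 56.1% of the set's UMIs, led by Ifit3 (273), Ifit3b (112), Ifit1 (101) and Ifit2 (59). It held 43 of the 53 Rsad2 UMIs of the PBS class and all 6 of Ifi44. Cxcl10, a chemokine outside the set, followed: 134 of the 140 UMIs of the PBS class were in this cell. Ifi27l2a, Ifi204, Ifi211, Oas2 and Oas3 were at 0 in it.

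Without the cell with the most UMIs of the set in each library, the sum in Müller glia-like cells was 1239 CPM with PBS and 2198 CPM with MSC-sEV, a ratio of 1.77 (1.67 to 1.88), and the median log2 ratio was 0.93. The MSC-sEV cell left out held 251 UMIs of the set, 209 of them Ifitm3, and had 77 UMIs of monocyte or macrophage markers beside 43 of Müller glia markers. The IFIT genes were lower with all cells and higher without these 2: Ifit1 went from 0.907 to 1.89 (1.45 to 2.49), Ifit2 from 0.387 to 1.92 (0.961 to 3.96), Ifit3 from 0.569 to 1.16 (0.969 to 1.39) and Ifit3b from 0.692 to 1.34 (1.03 to 1.73).

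Several genes were higher with and without these cells. Ifitm3 had 327 UMIs (222 CPM) with PBS and 779 (658 CPM) with MSC-sEV, a ratio of 2.97 (2.60 to 3.39), and 2.28 (1.99 to 2.63) without them. Oasl2 had 136 UMIs (92.3 CPM) and 240 (203 CPM), a ratio of 2.20 (1.77 to 2.73), and 2.95 (2.33 to 3.76) without. Stat2 was 2.30-fold higher (1.47 to 3.65), Parp14, which attaches ADP-ribose to proteins, 2.46-fold (1.68 to 3.66), Bst2 1.60-fold (1.34 to 1.91) and Irf9 1.63-fold (1.14 to 2.34).

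Of the wider pathway in Müller glia-like cells, 2 of 3 receptor kinase genes were at least 2-fold higher, Jak2 (18 and 29 UMIs; 2.01, 1.08 to 3.84) and Tyk2 (8 and 14; 2.18, 0.853 to 5.99). Of 5 receptor genes only Ifnar1 was, at 2.33 (1.39 to 4.01). Of 5 feedback inhibitors none was higher and 1 was lower by as much, and of 6 upstream sensors and adaptors 2 were lower. Of all 10144 genes measured in this class, 9.51% were higher and 4.67% lower by as much. The lists are short, and their counts were not tested against these shares. Irf1, a transcription factor that responds strongly to interferon gamma, had 27 and 71 UMIs, a ratio of 3.27 (2.08 to 5.31). All 3 measured chemokines were lower, Cxcl10 with 140 and 3 UMIs, Ccl12 with 320 and 24 and Ccl5 with 126 and 10. The Cxcl10 UMIs came from the PBS cell above, which held 0 of the Ccl12 and Ccl5 UMIs.

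Irf7 and Ifi27l2a went the other way in Müller glia-like cells. Irf7 had 78 UMIs (52.9 CPM) and 34 (28.7 CPM), a ratio of 0.543 (0.352 to 0.822), and 0.701 (0.444 to 1.09) without the top cells. Ifi27l2a had 79 UMIs (53.6 CPM) and 30 (25.4 CPM), a ratio of 0.473 (0.300 to 0.728). Its direction depended on the handling of cells: its log2 ratio was 1.04 with each cell given the same weight, 1.21 at 1000 UMIs and 0.67 in cells without a monocyte or macrophage marker UMI. Microglia markers, all 10 seen in both libraries, summed to 1018 CPM in the PBS Müller glia-like cells and to 205 CPM in the others. Monocyte or macrophage markers were at 61.8 CPM, with 4 of 9 seen and Ccr2, Ly6c2, Plac8, F13a1 and Chil3 at 0, and at 204 CPM, with 7 of 9 seen. The part of the microglia markers in these values was not tested.

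At 1000 UMIs, at least 3 genes of the set were seen in 8 of 97 PBS (8.25%, 3.63 to 15.6) and 17 of 56 MSC-sEV Müller glia-like cells (30.4%, 18.8 to 44.1). No UMI of the set was seen in 41.2% and 19.6%. With another random draw the difference was 8.51 percentage points in place of 22.1.

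In rod-like cells the sum was the same in both libraries, but this rested on a cluster of PBS cells only. The 982 PBS cells had 843 UMIs of the set (226 CPM) and the 1253 MSC-sEV cells 877 (230 CPM), a ratio of 1.02 (0.925 to 1.12). Cluster 15, with 45 PBS cells and 0 MSC-sEV cells, held 512 of the 843 UMIs at 590 CPM, and 2 of its cells held 230 and 89. It was named from 3 rod markers, Sag and Gngt1 among them, but also carried microglia markers at 1607 CPM, beside 37.4 to 156 CPM in the other rod-like clusters of the PBS library. Without it the sum went from 116 to 230 CPM, a ratio of 1.99 (1.75 to 2.26).

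**Figure D4:**
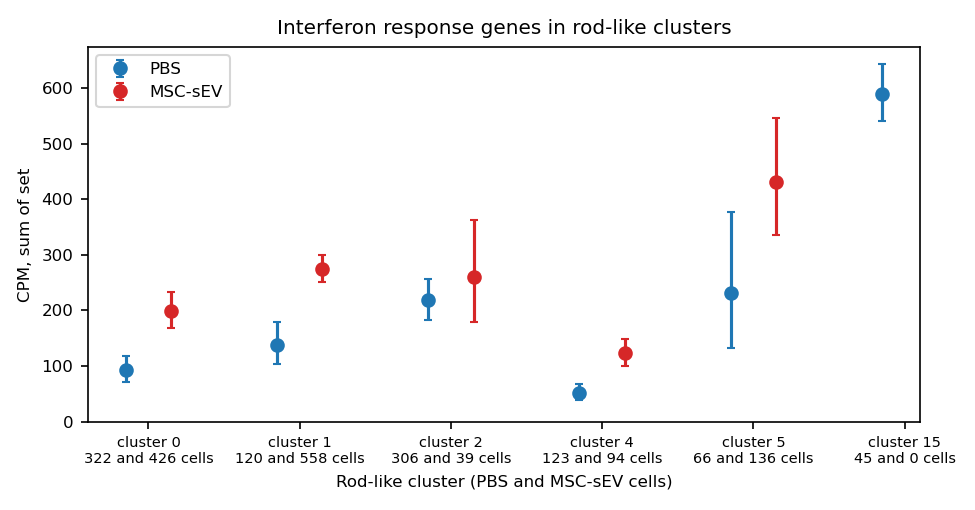
Summed level of the set (CPM) in each rod-like cluster by library, with 95% exact Poisson intervals. The MSC-sEV point is higher in the 5 clusters with cells of both libraries, with overlapping intervals in clusters 2 and 5, and cluster 15, with PBS cells only, stands highest at 590 CPM.

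Cluster by cluster the ratio of the sum in rod-like cells was 2.14 (1.59 to 2.89) in cluster 0, 1.99 (1.51 to 2.68) in cluster 1, 1.19 (0.794 to 1.74) in cluster 2, 2.38 (1.70 to 3.36) in cluster 4 and 1.86 (1.07 to 3.43) in cluster 5. The level itself was low in all of them, from 51.8 to 232 CPM with PBS and from 123 to 431 CPM with MSC-sEV. Over all rod-like cells the microglia markers, all 10 seen in both libraries, summed to 440 CPM with PBS and to 84.7 CPM with MSC-sEV. Monocyte or macrophage markers were at 16.1 CPM, with 6 of 9 seen and Ly6c2, Chil3 and Vcan at 0, and at 66.1 CPM, with 8 of 9 seen and F13a1 at 0. T cell markers were at 1.88 CPM, with 4 of 7 seen, and at 18.6 CPM, with all 7 seen. Markers of migratory dendritic cells were at 23.9 and 21.5 CPM, and those of conventional dendritic cells type 2 at 0.268 and 4.72 CPM. Within clusters 0 and 1 the microglia markers summed to 100 and 75.3 CPM with PBS and to 101 and 94.4 CPM with MSC-sEV. Müller glia markers were lower with MSC-sEV in every rod-like cluster with cells of both libraries. Their sum fell from 320 to 134 CPM in cluster 0, from 294 to 145 in cluster 1 and from 1105 to 443 in cluster 2. It fell from 171 to 136 CPM in cluster 4 and from 566 to 112 in cluster 5. In cluster 15 it stood at 1059 CPM. Whether leukocyte or Müller glia RNA had a part in these values was not tested.

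Over all rod-like cells 22 genes reached 20 UMIs, 8 higher and 14 lower, where 61.1% of 10581 genes were higher. By at least 2-fold, 5 were higher and 7 lower, beside 13.3% and 5.87% of the 10581. The median log2 ratio of the 22 genes was -0.31 where that of all genes measured was 0.23. Without cluster 15 the median was 0.49. Irf9 and Stat2 had ratios above 1 with and without that cluster. Irf9 had 31 UMIs (8.31 CPM) in 29 PBS cells and 128 (33.6 CPM) in 96 MSC-sEV cells, a ratio of 4.04 (2.71 to 6.19), and 4.37 (2.76 to 7.21) without cluster 15. Stat2 had 50 UMIs (13.4 CPM) and 117 (30.7 CPM), a ratio of 2.29 (1.63 to 3.26), and 2.09 (1.46 to 3.05) without it.

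Within rod-like clusters these genes had few UMIs. In cluster 1 Irf9 had 6 and 94 UMIs (3.39, 1.50 to 9.46), while Stat2 had 20 and 74 and was not higher (0.80, 0.483 to 1.38). In cluster 0 Irf9 had 1 and 13 UMIs (11.5, 1.73 to 490). In cluster 4 Stat2 had 3 and 16 (6.34, 1.81 to 33.9) and Irf9 8 and 11 (1.63, 0.599 to 4.68). In cluster 2, with 39 MSC-sEV cells, Stat2 had 11 and 0 and Irf9 7 and 0 UMIs. The receptor gene Ifnar1 was 2.24-fold higher over all rod-like cells (1.62 to 3.14) and 1.93-fold without cluster 15 (1.38 to 2.74). It was the 1 of 5 receptor genes at least 2-fold higher in rod-like cells, where 2 were lower, Ifnar2 at 0.336 (0.153 to 0.685) and Il10rb at 0.472 (0.231 to 0.923). Without cluster 15 Ifnar2 had 9 and 11 UMIs, a ratio of 0.917 (0.346 to 2.505). Of 4 measured feedback inhibitors 2 were higher, Samhd1 at 2.13 (1.48 to 3.10) and Adar, which edits double-stranded RNA, at 2.20 (1.50 to 3.25). Of all genes measured in rod-like cells, 13.3% were higher and 5.87% lower by at least 2-fold. The counts from these short lists were not tested against those shares. Both measured chemokines, Ccl12 and Ccl5, were lower over all rod-like cells, at 0.250 (0.182 to 0.339) and 0.235 (0.181 to 0.303). Ratios of Ccl12, Ccl5 and Il10rb without cluster 15, which carried microglia markers at 1607 CPM, were not computed.

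Ifi27l2a in rod-like cells had 70 UMIs (18.8 CPM) and 158 (41.5 CPM), a ratio of 2.21 (1.66 to 2.97), and 5.93 (3.71 to 9.97) without cluster 15. The IFIT genes were lower. Müller glia markers were also lower in the clusters given above, and their part in the IFIT values was not tested. Ifit3 had 74 UMIs (19.8 CPM) and 9 (2.36 CPM), a ratio of 0.119 (0.0524 to 0.238), and 0.233 (0.0970 to 0.505) without cluster 15. Ifit1 had 45 and 5 UMIs, a ratio of 0.109 (0.0337 to 0.273), and without cluster 15 it had 8 and 5, a ratio of 0.469 (0.121 to 1.63). Isg15, Usp18 and Ifi35 had ratios of 0.459 (0.267 to 0.768), 0.213 (0.0632 to 0.572) and 0.376 (0.162 to 0.806), and without cluster 15 these were 1.15 (0.575 to 2.37), 0.938 (0.202 to 4.73) and 1.07 (0.368 to 3.32).

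Cone-like cells had 6 genes of the set with at least 20 UMIs, 3 of them at least 2-fold higher and 0 as much lower, beside 11% and 2.15% of 8451 genes. Bipolar cell-like cells had 3, of which 1 was higher and 0 lower by as much, beside 8.94% and 3.21% of 7191 genes. In cone-like cells the sum was 108 CPM (162 UMIs) and 146 CPM (133 UMIs), a ratio of 1.35 (1.07 to 1.71). With cells thinned to equal depth the direction turned, on few UMIs. The set then had 14 UMIs in 74 PBS cells and 3 UMIs in 46 MSC-sEV cells. A UMI of the set was seen in 17.6% (9.70 to 28.2) and 6.52% (1.37 to 17.9) of these cells, and the intervals overlapped. Without thinning, Irf9 had 8 and 21 UMIs in cone-like cells (4.32, 1.84 to 11.3) and Stat2 16 and 18 (1.85, 0.892 to 3.88). Ifitm3 and Ifi27l2a were 2.79-fold (1.34 to 6.02) and 4.94-fold (1.88 to 15.2) higher. In bipolar cell-like cells the sum was 143 CPM (65 UMIs) and 206 CPM (108 UMIs), a ratio of 1.44 (1.05 to 1.99). Stat2 had 7 and 25 UMIs (3.09, 1.30 to 8.46) and Irf9 5 and 12 (2.08, 0.681 to 7.52).

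The ratios of Stat2 and Irf9 were thus above 1 in microglia-like, Müller glia-like, rod-like, cone-like and bipolar cell-like cells. Of all genes measured in these classes, from 52.0% (microglia-like) to 62.0% (cone-like) also had ratios above 1. Of these 5 classes, intervals were above 1 for Stat2 in all but the cone-like and for Irf9 in all but the bipolar cell-like cells, although for microglia-like cells neither was within cluster 3 alone. In the 21 PBS and 10 MSC-sEV endothelial cell-like cells, Irf9 was 3.53-fold higher (1.39 to 10.1), and Stat2 was at 1.46 (0.436 to 4.86). Whether the ratios differ between classes was not tested.

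Of the leukocyte classes in the MSC-sEV library only, conventional dendritic cell type 2-like cells most often held at least 3 genes of the set at 1000 UMIs, in 59.1% of 66 cells (46.3 to 71.0). Monocyte or macrophage-like cells followed with 53.0% of 151 (44.7 to 61.1), T cell-like cells with 45.2% of 104 (35.4 to 55.3), the unnamed Ccr3 cluster with 18.3% of 93 (11.02 to 27.6) and migratory dendritic cell-like cells with 17.02% of 47 (7.65 to 30.8). The intervals of the first 3 overlapped. Of the monocyte or macrophage-like cells, 27 of 151 (17.9%, 12.1 to 24.9) had at least 1% of their own UMIs in the set, against 9 of 66 conventional dendritic cell type 2-like and 5 of 104 T cell-like cells, and 17 of the 151 lay between 0.8% and 1.2%.

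Monocyte or macrophage-like cells had a variance of 7.93 times the mean, at a mean of 5.83 UMIs per thinned cell, and the top 10% of cells held 40.7% of the UMIs. Clustered again, they gave 6 subclusters of 20 to 42 cells. The marker rule was here applied to each subcluster against the others of the class only. By it 5 took the names neutrophil-like, microglia-like, conventional dendritic cell type 2-like, rod-like and perivascular macrophage-like, and 1 took none. Whether the class mixes these cell types was not tested. Subcluster 2, with 23 cells, had 15156 CPM of the set (14754 to 15567; 5372 UMIs), beside 2078 to 5160 CPM in the 5 others, and held 39.4% of the set's UMIs in the class. In it Ifitm3 was at 3908 CPM, Ifi27l2a at 2943, Isg15 at 976, Ifi204 at 940 and Irf7 at 511. The set was left out of this clustering, but other interferon-induced genes were not, so the split is not independent of the response. Cxcl10 and Cd209a were among the genes that led this subcluster, which was named conventional dendritic cell type 2-like.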

How the data were processed

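Single-cell RNA of retina was measured in 2 libraries, 1 per group. The authors deposited UMI counts for every gene and barcode. Per the submitters' processing notes these come from Cell Ranger 3.0.2 with the mm10 genome. Their annotation release is not given in the sources used here. Barcodes were kept from 500 UMIs and 300 genes upward, provided that mitochondrial genes held no more than 15% of their UMIs. Scrublet in scanpy 1.11.5 was run on each library with 2% doublets expected; it called 3 PBS and 4 MSC-sEV barcodes, which were removed, so doublets may remain. Cells of both libraries were clustered on 2000 variable genes without mitochondrial, ribosomal protein, sex-linked and interferon pathway genes, with 30 principal components, 20 neighbours and the Leiden method (leidenalg 0.10.2, resolution 1). A cluster took a class name when 3 or more of that class's markers were each present in 20% or more of the cells and 2-fold or more above other clusters, unless another class led its top 10 genes. UMIs were summed per class and library and given as CPM, with exact 95% intervals computed in scipy 1.17.1. A fold against 0 UMIs used a floor of 3 counts over the class.

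The counting was checked on simulated counts. The genes, lists and markers were chosen with earlier results of these data known. Full values are given for the gene with the most UMIs in each group by function and for the 3 genes with the highest and the 3 with the lowest interval bound nearest 1 in microglia-like cells. Alternatives changed the cell filter, doublets, clustering, denominator, weight of cells, depth and count minimum; those without cluster 15, in cluster 3 only, without the top cell and without a monocyte or macrophage-like subcluster were added after the data were seen. In GENCODE M21, 31011 of 31053 gene IDs were found, all 32 genes of the set among them. UMIs count 3′ ends, so levels do not scale with gene length.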

Additional observations from a re-analysis of the deposited data

Results flagged for a closer look

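The genes below had ratios of MSC-sEV over PBS on opposite sides of 1 in Müller glia-like and microglia-like cells. With 1 library per group this difference between the classes was not tested. Ifit2 was at 0.387 in Müller glia-like and 2.14 in microglia-like cells, and Rsad2 at 0.329 and 11.4; without the cell with the most UMIs of the set in each library the Müller glia-like values were 1.92 (0.961 to 3.96) and 1.76 (0.725 to 4.42), on the same side as microglia-like cells. Irf7 was at 0.543 and 6.30, and Ifi27l2a at 0.473 and 5.23; without the top cells their Müller glia-like values were 0.701 (0.444 to 1.09) and 0.476 (0.302 to 0.733). Oasl1 was at 0 and 16.1 and Mx1 at 0 and 4.80, where the 0 stands for 0 MSC-sEV UMIs beside 10 and 7 PBS UMIs in Müller glia-like cells, of which the top cell held 4 and 5. Microglia markers in Müller glia-like cells summed to 1018 CPM with PBS and to 205 CPM with MSC-sEV, and their part in these values was not tested.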

How the results depend on the processing

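No paired analysis was possible because each group had 1 library. Of the values of single genes recomputed under other settings, 330 in microglia-like cells stayed within their main interval. Another 37 moved outside it, and 2 changed direction from a main ratio of at least 2-fold. For rod-like cells these numbers were 214, 39 and 5, and for Müller glia-like cells 194, 56 and 7. Turns of smaller main ratios are not counted as changes of direction. Those of Ifit1, Ifit3 and Ifit3b in Müller glia-like cells without the top cells are examples. The cause of these changes was not tested, except where a setting leaves out named cells.

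The ratio of the summed set in microglia-like cells, 2.59, was 2.81 without the 2% of cells with the highest doublet scores, 2.35 at resolution 0.5, 2.37 with each cell given the same weight, 3.09 at 1000 UMIs, 2.43 in cells without a monocyte or macrophage marker UMI, 2.05 without Ifi27l2a and 2.79 in cluster 3 alone. With equal weights the log2 ratios of Ifit2 and Isg15 were -0.37 and -0.00598. In rod-like cells the ratio of 1.02 was 2.01 at resolution 0.5, 1.32 with equal weights, 1.66 at 1000 UMIs, 1.52 in cells without a monocyte or macrophage marker UMI, 0.91 without the most abundant gene, 1.32 without the top cells and 1.99 without cluster 15. The rod-like median log2 ratio of -0.31 was 0.51 at resolution 0.5, 1.19 at 1000 UMIs, 0.46 without marker-bearing cells and 0.49 without cluster 15. The log2 ratios of Isg15, Usp18 and Ifi35, below 0 over all rod-like cells, turned to 0.20, 0.32 and 0.096 at resolution 0.5, and those of Isg15 and Ifi35 to 0.20 and 0.10 without cluster 15. In Müller glia-like cells the ratio of 1.26 was 1.46 at resolution 2, 2.13 with equal weights, 1.90 at 1000 UMIs, 2.56 without marker-bearing cells, 1.03 without the most abundant gene and 1.77 without the top cells. Its median log2 ratio of 0.24 was 0.88 with equal weights, 1.10 without marker-bearing cells and 0.93 without the top cells. Among genes with log2 ratios below 0, that of Usp18 turned to 0.11 with equal weights, that of Ifi27l2a to 1.04 with equal weights, 1.21 at 1000 UMIs and 0.67 without marker-bearing cells, that of Rsad2 to 2.57 without marker-bearing cells and 0.81 without the top cells, and that of Ifit2 to 0.94 without the top cells.

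The difference in the share of cells with at least 3 genes of the set, MSC-sEV minus PBS, was 28.9 percentage points in microglia-like, 22.1 in Müller glia-like and 0.0026 in rod-like cells. With at least 2 genes it was 44.8, 18.4 and 0.119, with at least 5 it was 16.7, 7.90 and 0.0957, and at 2000 UMIs it was 41.4, 16.0 and 1.05. At 500 UMIs it was 15.9 in microglia-like cells, and with another random draw 39.4 in microglia-like and 8.51 in Müller glia-like cells. The MSC-sEV level in microglia-like over that in rod-like cells, 20.6, was 23.3 with a stricter filter, 22.9 without the highest doublet scores and 19.2 at resolution 0.5. Depth limits the sparse genes: in rod-like cells 10 of 32 and in Müller glia-like cells 8 of 32 had under 20 UMIs.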
